A study of Homo sapiens with 6 samples.

Results

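Keratins are the intermediate filament proteins of epithelial cells. Each filament is built from pairs of an acidic type I keratin and a basic type II keratin, so a cell makes members of both classes. In the breast, the inner luminal cells are known for KRT8, KRT18, KRT19 and KRT7, and the outer basal cells for KRT5, KRT14 and KRT17, and pathologists use the difference to tell luminal from basal-like tumours. The genes described here are 10 keratins chosen by name. The group called luminal here holds the simple-epithelial KRT7, KRT8, KRT18 and KRT19, and KRT80 was listed with them. The basal or stratified group holds KRT5, KRT13, KRT14, KRT15 and KRT17. All 10 were among the 17891 genes of the expression table, and 8 of them held enough counts to be tested.

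RNA was sequenced from T47D cells, an established human line of luminal breast cancer, in 6 libraries. In the PRL group (3 libraries) the cells carried a PLVX-puro lentivirus with the gene of the hormone prolactin, and in the control group (3 libraries) the same lentivirus without it. Both groups had been selected after transduction and grown in RPMI1640 medium with serum, with no other treatment. The series calls the 3 libraries of a group biological replicates, but whether they came from separate transductions or cultures is not given in the sources used here, so p-values measure the spread between these libraries. Total RNA from whole cultures was measured, so fewer cells of a kind and less RNA per cell cannot be told apart.

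Libraries held 16211146 to 17402348 estimated gene counts. PRL itself lay at 0.0624 to 0.203 CPM (counts scaled to a common library size) in the controls and 444 to 458 CPM in the PRL group, in the direction of the labels. Spread was wider among the controls: any 2 of them gave a chi-square of 13.5 to 25.8 per gene, and any 2 PRL libraries one of 1.67 to 2.21. Ribosomal protein genes took 15.5% to 18.6% of counts in controls and 10.03% to 10.6% in the PRL group. Values also depended on the scale, and the part of the ribosomal protein genes in this was not tested. Levels are given as the deposited TPM values, which correct for length and can be compared between genes. Changes were tested on CPM with TMM scaling (trimmed mean of M values), which set the median log2 fold change of all 14076 tested genes at 0.01. On log2 TPM with a pseudocount of 1, the median was 0.39 over those tested genes with a mean of at least 1 TPM. An equal TPM in both groups is therefore a position below most of these genes. Of the genes called at an adjusted p under 0.05, 51.4% were higher in the PRL group on the TMM scale, 72.9% with library totals, 69.9% on FPKM and 83.7% on TPM.

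The 10 genes lie in the 2 keratin clusters of the genome. On GENCODE release 29 (GRCh38), the type II genes KRT80 (52168996 to 52192000), KRT7 (52232520 to 52252186), KRT5 (52514575 to 52520687) and KRT8 (52897187 to 52949954) are on chromosome 12, and KRT18 (52948871 to 52952901), a type I gene, sits beside KRT8. The other type I genes KRT13 (41500981 to 41505705), KRT15 (41513743 to 41522529), KRT19 (41523617 to 41528308), KRT14 (41582279 to 41586921) and KRT17 (41619441 to 41624842) are on chromosome 17. KRT8 and KRT18 are transcribed in opposite directions and share 525 exon bases, 16.3% of the exon bases of KRT18 and 7.63% of those of KRT8. KRT13 shares 16.3% of its exon bases with an antisense gene and KRT7 shares 6.89% with KRT7-AS. The use of strand in counting is not given in the sources used here, so reads in these stretches cannot be assigned with certainty.

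Keratins are also alike in sequence, which bears on how far a few reads can be given to 1 gene. The stretch below is the longest run shared letter for letter by the coding sequences of KRT14 and KRT17, 59 bases, beside the most similar stretch of the same length in other type I keratins (GENCODE 29 transcripts, 5′ to 3′). Capitals mark bases that differ from KRT14.
KRT14: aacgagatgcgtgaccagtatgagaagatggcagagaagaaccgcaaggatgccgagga
KRT17: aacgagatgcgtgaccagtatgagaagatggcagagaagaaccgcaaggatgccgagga
KRT16: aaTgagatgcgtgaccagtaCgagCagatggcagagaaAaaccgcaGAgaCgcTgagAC
KRT15: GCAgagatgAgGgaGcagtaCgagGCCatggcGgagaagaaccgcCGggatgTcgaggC
KRT13: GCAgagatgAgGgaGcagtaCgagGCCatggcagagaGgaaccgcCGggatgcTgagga
KRT19: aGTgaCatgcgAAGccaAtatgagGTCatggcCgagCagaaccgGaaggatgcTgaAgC
KRT18: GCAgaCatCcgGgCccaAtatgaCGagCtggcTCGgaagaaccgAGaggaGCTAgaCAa

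Identity to KRT14 over these bases was 83.1% for KRT16, 76.3% for KRT13, 74.6% for KRT15, 72.9% for KRT19 and 62.7% for KRT18.

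Over the whole coding sequences, 48.3% of the windows of 50 bases of KRT8 and 38.7% of those of KRT18 also occur in a transcript of another gene, mostly processed pseudogenes such as KRT8P3 and KRT18P11. The share was 24.7% for KRT14, largely with KRT16, and 17.1% for KRT17, largely with KRT17 pseudogenes. It was 5.74% for KRT5 and 1.25% to 2.08% for KRT7, KRT13, KRT15, KRT19 and KRT80. In windows of 100 bases the shares were 8.87% for KRT8, 7.05% for KRT14, 2.09% for KRT5 and 0.417% for KRT17, and 0 for the other 6 genes. The read length is not given in the sources used here. The deposited counts of KRT18 were whole numbers in 6 of 6 libraries, whereas those of KRT8, KRT7 and KRT80 were not whole in any library.

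Of the luminal keratins 4 of 5 fell in the PRL group and KRT80 did not pass the test. Of the basal and stratified keratins KRT13 and KRT15 fell, KRT17 rose, and KRT5 and KRT14 were near 0 in both groups. In all, 6 of the 8 tested members were lower, beside 30.5% of all tested genes, and 1 of 8 was higher, beside 32.4% of all tested genes. The keratins were chosen with earlier results of these data known, so these counts describe the list alone and show no excess over the shares. KRT13 reached the level of the filter in the controls alone, so its place among the tested genes already required a difference, and the count of 6 includes it. Those 6 lay below every control in TMM CPM in all PRL libraries, beside 33.5% of all tested genes, and KRT17 lay above, beside 35.9%. Separation of the groups was common in these data, at 69.5% of genes in either direction, and 62.9% of genes passed the test.

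**Figure D1:**
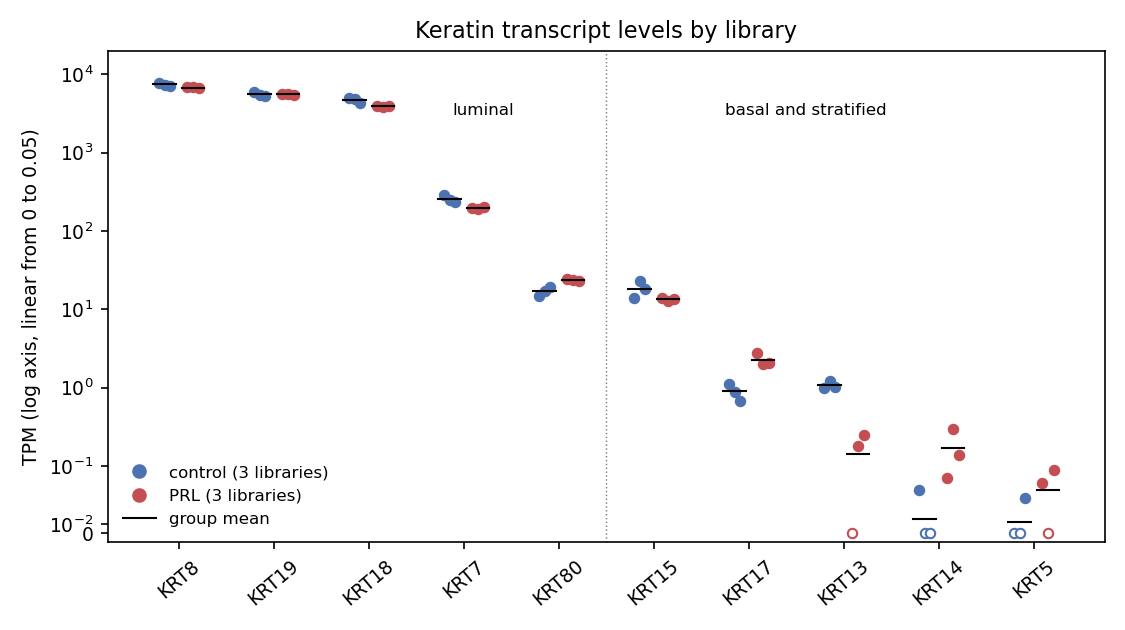
TPM of the 10 keratins in each library (points, 3 per group; open points are 0) with the group mean (line), on a log axis that is linear from 0 to 0.05. KRT8, KRT19 and KRT18 lie between 3884 and 7812 TPM in every library, KRT7 between 189 and 286, KRT80 and KRT15 between 12.7 and 24.8, and KRT17, KRT13, KRT14 and KRT5 at 2.74 or less.

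The keratins spanned a wide range of levels, from means of 7423 TPM for KRT8 to 0.0133 TPM for KRT5 in the controls. KRT8, KRT19 and KRT18 followed each other in that order in all 6 libraries, and together made up 1.69% to 1.87% of all TPM in controls and 1.62% to 1.63% in the PRL group. KRT7 came next. KRT80 and KRT15 overlapped in the controls (14.7 to 19.6 and 14 to 23.1 TPM), whereas in the PRL group KRT80 lay above KRT15 (23.3 to 24.8 and 12.7 to 13.8 TPM). KRT13 and KRT17 overlapped in the controls as well (1 to 1.23 and 0.67 to 1.13 TPM), and in the PRL group KRT17 lay above KRT13 (2.01 to 2.74 and 0 to 0.25 TPM). KRT14 and KRT5 were last, at 0.30 TPM or less, and could not be ordered.

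KRT8 is the type II keratin of simple epithelia and the first to appear in development. Its TPM was 7812, 7285 and 7172 in control replicates 1 to 3 and 6795, 6813 and 6727 in PRL replicates 1 to 3. On the TMM scale it was 11675, 9057 and 8788 CPM in controls and 6368, 6567 and 6603 CPM in the PRL group. The PRL libraries lay below every control on both scales, and control replicate 1 was the highest library. KRT8 fell by a log2 difference of -0.60 ± 0.13 (SE; adjusted p = 0.0026 in edgeR).

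KRT18, the usual type I partner of KRT8, had 5005, 4863 and 4338 TPM in controls and 4001, 3884 and 3900 TPM in the PRL group. Here too no PRL library reached the lowest control. KRT18 fell by a log2 difference of -0.73 ± 0.13 (SE; adjusted p = 6.7e-04 in edgeR), from 4937 ± 866 to 2966 ± 36.8 CPM (SD, n = 3).

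KRT19, the smallest keratin, lacks most of the tail domain and marks simple and luminal epithelium. Its TPM was 5864, 5411 and 5344 in controls and 5529, 5538 and 5527 in the PRL group. The PRL values lay inside the range of the controls on TPM, and below it on the TMM scale (4005 to 4192 against 5060 to 6774 CPM). The TMM-scaled difference was -0.47 ± 0.13 on the log2 scale (SE; adjusted p = 0.0090 in edgeR). This call ended on FPKM (-0.20, limma adjusted p = 0.0679) and on TPM (0.00, limma adjusted p = 0.99), where the median of all genes was 0.20 and 0.39.

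KRT7, a type II keratin of glandular and ductal epithelium, had 286, 250 and 232 TPM in controls and 197, 189 and 201 TPM in the PRL group. The groups were apart. KRT7 showed the largest fall of the luminal keratins, a log2 difference of -0.81 ± 0.13 (SE; adjusted p = 2.9e-04 in edgeR), from 299 ± 61.2 to 171 ± 7.51 CPM (SD, n = 3).

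KRT80, a type II keratin first described in differentiating epithelia, lay near the median of all genes. It had 48.3, 47.5 and 53.0 CPM in controls and 51.5, 50.9 and 50.6 CPM in the PRL group, and the groups overlapped (log2 fold change 0.04, SE 0.07, edgeR adjusted p = 0.665). On TPM it was 14.7, 17.3 and 19.6 in controls and 24.8, 23.8 and 23.3 in the PRL group, with no overlap. KRT80 passed the test with library totals (0.29, edgeR adjusted p = 0.0182), on FPKM (0.27, limma adjusted p = 0.0222) and on TPM (0.46, limma adjusted p = 0.0052). Taken from the median of all genes in the same setting, these were differences of 0.03, 0.07 and 0.07.

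**Figure D2:**
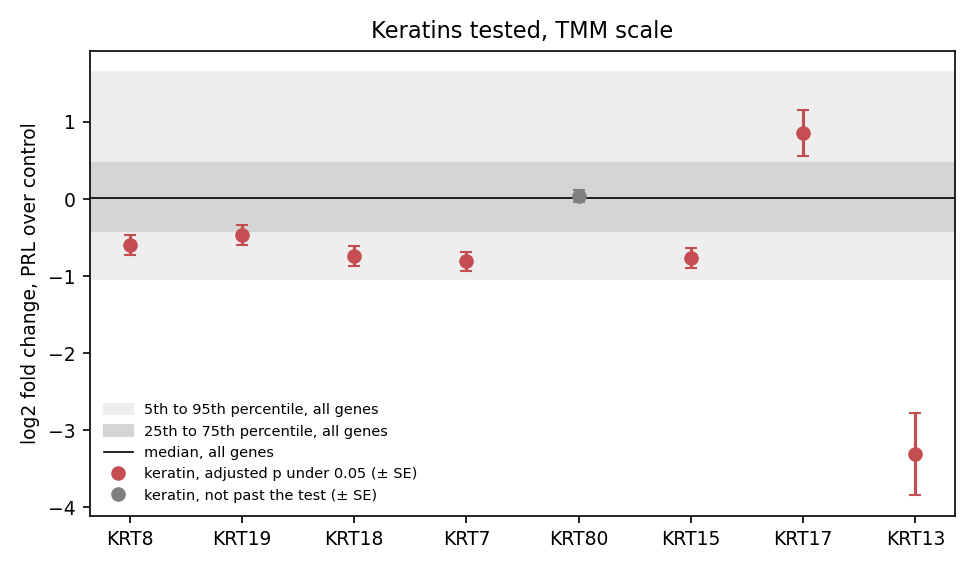
Log2 fold change, PRL over control, with its SE for the 8 tested keratins on the TMM scale, over the spread of all 14076 tested genes (bands from the 25th to the 75th and from the 5th to the 95th percentile, line at the median). KRT8, KRT19, KRT18, KRT7 and KRT15 lie between the 5th and 25th percentile (-1.04 and -0.41), KRT80 near the median, KRT17 above the 75th percentile (0.47) and KRT13 below the 5th.

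Against the spread of all genes the falls of the abundant keratins were moderate. The log2 fold change of KRT8 stood at percentile 16.3 of all tested genes, KRT19 at 22.1, KRT18 at 11.5, KRT7 at 9.34 and KRT15 at 10.6. The median of the 5 luminal keratins was -0.60, beside 0.01 for all tested genes. A shift of the whole scale moves all of these values together. Measured from the median of all genes, KRT8 lay between -0.69 and -0.46, KRT18 between -0.86 and -0.59, KRT7 between -0.92 and -0.63 and KRT19 between -0.56 and -0.32 over the 18 other settings run. The log2 fold change as computed was below 0 in all 18 for each of these 4 genes, but for KRT19 on TPM it was only -9.0e-04. These settings reuse the same libraries, so they are not independent of each other.

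**Figure D3:**
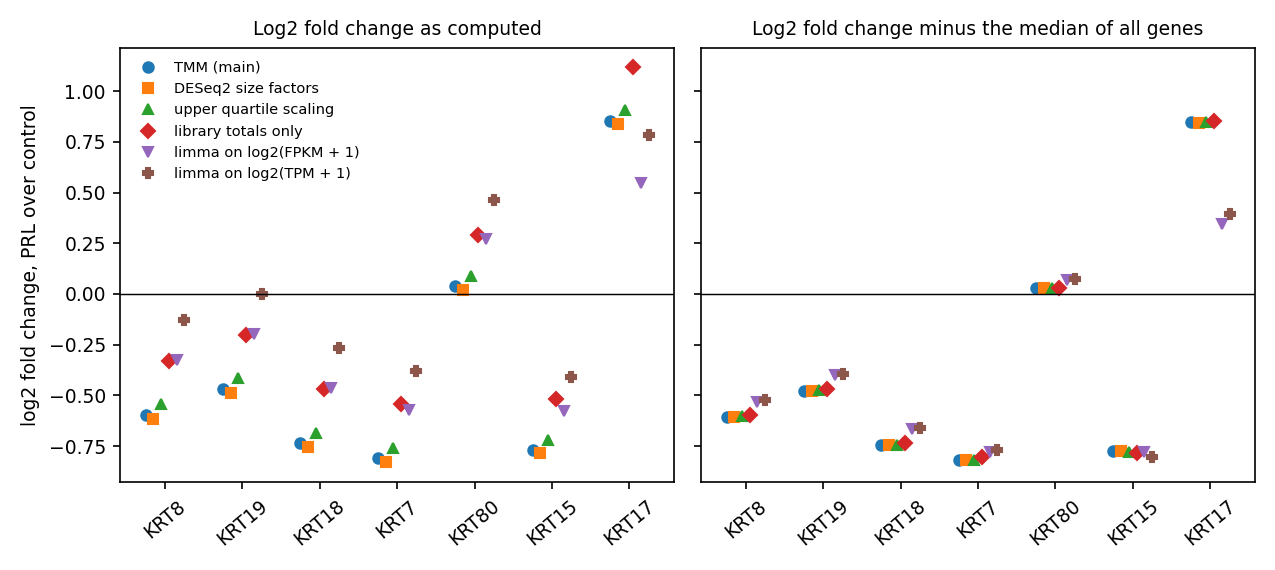
Log2 fold change, PRL over control, of 7 keratins under 6 ways of scaling or testing, as computed (left) and after subtracting the median of all genes in the same setting (right). KRT8, KRT19, KRT18, KRT7 and KRT15 spread widely on the left (KRT19 from -0.49 to 0.00) and lie below 0 in each setting on the right. KRT13 is not shown because its mean was under the minimum of the FPKM and TPM fits.

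The ratio of 2 keratins within a library does not depend on the scaling between libraries. KRT18 to KRT8 was 0.641, 0.668 and 0.605 in controls and 0.589, 0.570 and 0.580 in the PRL group (TPM). The highest PRL ratio was below the lowest control. KRT19 to KRT8 was 0.751, 0.743 and 0.745 in controls and 0.814, 0.813 and 0.822 in the PRL group, so the 2 groups were apart by more than the SD of either (0.0041 and 0.0048). KRT19 to KRT18 went from 1.17 ± 0.0596 to 1.41 ± 0.0233 (SD, n = 3), again with no overlap. KRT7 to KRT8 went from 0.0344 ± 0.0021 to 0.0289 ± 0.0011. KRT80 to KRT8 went from 0.0023 ± 4.3e-04 to 0.0035 ± 1.0e-04. Each of these 5 ratios gave p = 0.1 in a two-sided exact permutation test, the smallest that 3 against 3 libraries allow, so none could reach 0.05. In these libraries KRT18 and KRT7 were lower relative to KRT8, and KRT19 and KRT80 higher, in every PRL library than in any control. Such separation was common, at 69.5% of single tested genes, and its share among ratios of other genes was not computed. KRT8 and KRT18 share exon bases, as given above, and the part of this in their ratio was not tested.

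**Figure D4:**
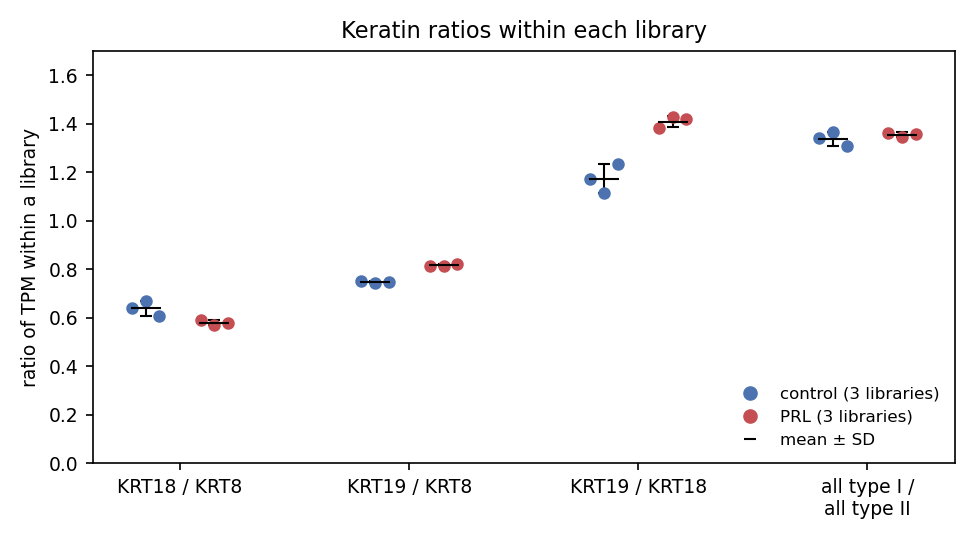
Ratio of TPM within each library (points) with the mean ± SD of 3 libraries per group. KRT18 to KRT8 is lower in the PRL group (0.638 and 0.580), KRT19 to KRT8 (0.746 and 0.816) and KRT19 to KRT18 (1.17 and 1.41) are higher, and the ratio of all type I to all type II members overlaps between the groups.

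Levels were also summed by keratin class. The 6 type I members summed to 10885, 10300 and 9702 TPM in controls and 9547, 9438 and 9443 TPM in the PRL group. The 4 type II members summed to 8113, 7552 and 7423 TPM in controls and 7017, 7027 and 6952 TPM in the PRL group. Both sums were lower in each PRL library than in any control. Their ratio was 1.34, 1.36 and 1.31 in controls and 1.36, 1.34 and 1.36 in the PRL group, and the groups overlapped. These sums rest almost wholly on KRT8, KRT18 and KRT19, and are given with no test.

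Among the stratified keratins KRT15 was the most abundant. It is a type I keratin of basal cells in stratified epithelia and of hair follicle stem cells. It had 14, 23.1 and 18.3 TPM in controls and 13.8, 12.7 and 13.6 TPM in the PRL group, with control replicate 2 the highest and control replicate 1 close to the PRL libraries. KRT15 fell on the TMM scale, where the groups were apart (21.1, 30.04 and 24.3 against 14.8, 14.3 and 15.2 CPM), by a log2 difference of -0.77 ± 0.13 (SE; adjusted p = 4.3e-04 in edgeR). Measured against KRT19, its neighbour on chromosome 17, the ratio in TPM overlapped between the groups (0.0034 ± 9.4e-04 and 0.0024 ± 1.1e-04, two-sided exact permutation p = 0.3).

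KRT13, a type I keratin of the mucosal, non-cornified stratified epithelia, had 21, 23 and 19 counts in controls and 0, 3 and 4 in the PRL group. All PRL libraries were far below the controls. The counts summed to 63 and 7, and the ratio of control to PRL was 10.4 after scaling, with an exact 95% counting interval of 4.77 to 26.9. KRT13 had a fitted log2 difference of -3.31 ± 0.53 (SE). It passed the filter through the controls alone, so its place among the tested genes already required a difference. In TPM it went from 1.08 ± 0.13 to 0.143 ± 0.129 (SD, n = 3), where KRT8 had 7423 ± 342 and 6778 ± 45.2.

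KRT17, a type I keratin of basal cells and of injured or activated epithelium, had 21, 15 and 11 counts in controls and 39, 30 and 30 in the PRL group. The lowest PRL library was above the highest control. KRT17 rose from 1.02 ± 0.373 to 1.84 ± 0.277 CPM (SD, n = 3), by a log2 difference of 0.85 ± 0.30 (SE; adjusted p = 0.029 in edgeR). The call ended in DESeq2 (adjusted p = 0.0874) and when any library other than control replicate 1 was left out (edgeR adjusted p from 0.0501 to 0.115).

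KRT5 and KRT14 are the defining type II and type I pair of basal cells, and both were at the limit of detection. KRT5 had 0, 0 and 1 counts in controls and 1, 0 and 2 in the PRL group. KRT14 had 1, 0 and 0 counts in controls and 1, 5 and 2 in the PRL group. With 0 counts, a library still allows up to 3 counts, or 0.165 to 0.203 CPM, which is counting error only. No library exceeded that level for KRT5, so no fold is given. For KRT14 the ratio of PRL to control over all counts was 6.92, with an exact 95% counting interval of 0.927 to 307 that includes 1, so no difference was detectable at this depth. Several of the KRT14 values were not whole, and a part of its sequence cannot be told from KRT16 and KRT17, as shown above.

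The 5 basal and stratified members together summed to 16.2, 25.2 and 20.04 TPM in controls and 16.7, 15.2 and 16.2 TPM in the PRL group. That was 0.0852% to 0.141% of the TPM of all 10 keratins in controls and 0.0921% to 0.101% in the PRL group. The groups overlapped. The sum is mostly KRT15, so it does not show that KRT13 and KRT17 went in opposite directions.

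**Figure D5:**
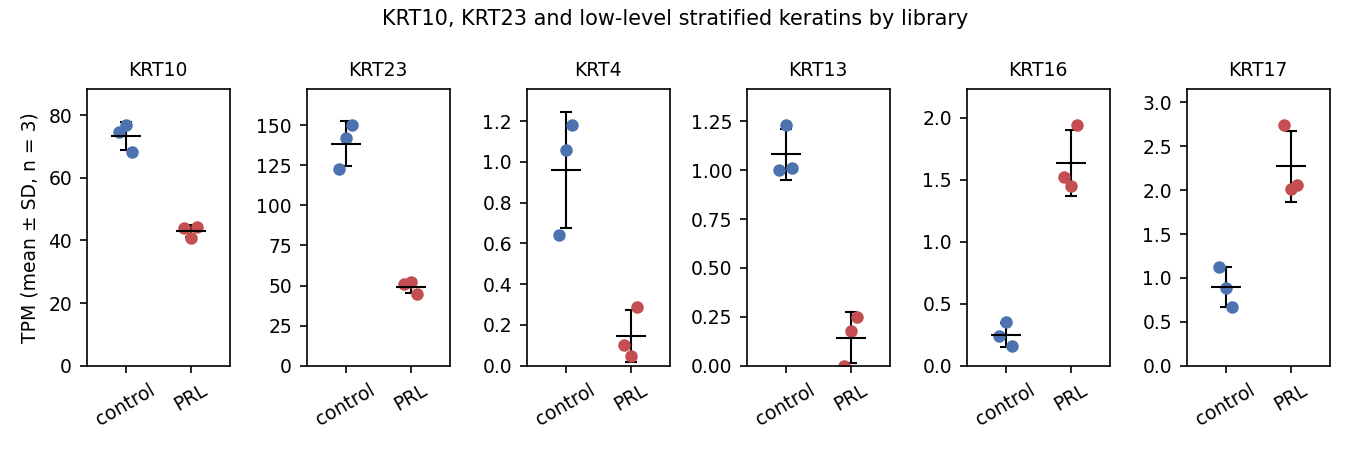
TPM of KRT10, KRT23 and 4 low-level stratified keratins in each library (points), with mean ± SD (n = 3) and a separate axis from 0 for each gene. KRT10, KRT23, KRT4 and KRT13 are lower in all 3 PRL libraries, and KRT16 and KRT17 higher.

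Of 27 other epithelial keratins listed, 16 were in the table and 4 were tested: KRT23, KRT10 and KRT4 were called lower and KRT16 higher. KRT4 and KRT16 reached the filter level of 0.605 CPM in all libraries of 1 group and in none of the other, so their place among the tested genes already required a difference. KRT23 and KRT10 reached it in all 6 libraries, and both fell. KRT23, a type I keratin, had 123, 142 and 150 TPM in controls and 50.9, 52.1 and 44.9 TPM in the PRL group, the largest keratin difference at a level above 10 TPM (log2 fold change -1.78, SE 0.08, edgeR adjusted p = 5.3e-08). KRT10, the type I keratin of differentiating epidermis, had 74.7, 76.8 and 68.4 TPM in controls and 44.0, 40.7 and 44.3 TPM in the PRL group (-1.23, SE 0.11, edgeR adjusted p = 5.7e-06). Both were apart in every library, on TPM as well.

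KRT4 is the type II partner of KRT13 in mucosal epithelium, and like KRT13 it passed the filter through the controls alone. KRT4 had 17, 25 and 28 counts in controls and 2, 1 and 6 in the PRL libraries, a fitted log2 difference of -3.11 beside -3.31 for KRT13. It was low in every library, at 1.18 TPM or less. KRT16 was singled out after its values were seen. It is a type I keratin of activated epidermis, close in sequence to KRT14 and KRT17, and had 0.24, 0.35 and 0.16 TPM in controls and 1.52, 1.45 and 1.94 TPM in the PRL group, a fitted log2 difference of 2.26. KRT16 passed the filter through the PRL group alone. Of 17 hair keratins 13 were in the table and 2 were tested, KRT81 and KRT86, and neither passed (edgeR adjusted p = 0.306 and 0.58, with 0 at an unadjusted p under 0.05; DESeq2, which tested more of them, called 2 lower).

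Of 10 tested non-keratin intermediate filament genes, 6 fell, 1 rose and 3 did not pass, with a median log2 fold change of -0.48. Over all tested genes, 30.5% were called lower and 32.4% higher. With library totals, 4 genes of this list were called lower, beside 2394 of all 14076 tested genes. The smallest adjusted p belonged to the lens filament genes BFSP2 (-1.60) and BFSP1 (-0.90) and the lamin gene LMNB2 (-0.48), at adjusted p of 5.1e-05, 1.8e-04 and 2.1e-04 in edgeR. Of 21 tested genes of desmosomes, hemidesmosomes and keratin linkers, 4 rose, 8 fell and 9 did not pass (median -0.14). The same shares of all tested genes stand beside these counts. DSP, which encodes desmoplakin, the protein that ties keratin filaments to desmosomes, rose from 352 ± 28.3 to 515 ± 12.1 CPM (SD, n = 3; log2 fold change 0.55, edgeR adjusted p = 2.6e-04). DST, the gene of the linker dystonin, fell (-1.44, edgeR adjusted p = 2.1e-06), and the hemidesmosome integrin gene ITGA6 rose (0.92, edgeR adjusted p = 1.9e-04). On TPM 7 genes of this list were called higher and 1 lower. On that scale 7113 of all 12494 tested genes were called higher and 1381 lower (pseudocount 1).

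The luminal label of the line was checked against other markers. GATA3, ESR1 and EPCAM lay at 319 to 571, 18.7 to 26.6 and 188 to 326 TPM over the 6 libraries. Of the basal markers, TP63, the master regulator of basal cells, lay at 0.29 to 1.46 TPM and KRT14 at 0.30 TPM or less. ACTA2 was higher, at 8.23 to 16.4 TPM, and CDH3 had means of 17.5 TPM in controls and 34.6 TPM in the PRL group. The luminal marker TFF1 had means of 2.44 and 2.65 TPM, so the 2 marker lists overlapped in level. Of 19 tested luminal markers 11 rose, 4 fell and 4 did not pass (median log2 fold change 0.23). Over all tested genes, 32.4% were called higher and 30.5% lower. The 4 luminal keratins that fell stood beside luminal markers that rose more often than they fell. The clearest were ELF3 (2.17), an epithelial transcription factor, AGR2 (-1.82) and TFF3 (-2.58), at adjusted p of 1.8e-08, 2.2e-07 and 4.5e-07 in edgeR.

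Of 15 tested basal and myoepithelial markers 6 rose, 4 fell and 5 did not pass (median log2 fold change 0.20). These counts were near the shares over all tested genes, 32.4% higher and 30.5% lower. NGFR (3.06) and THY1 (1.65) rose and ACTA2, the smooth muscle actin of myoepithelial cells, fell (-1.01), at adjusted p of 2.7e-06, 2.8e-05 and 2.4e-05 in edgeR. TP63 had 19, 36 and 20 counts in controls and 73, 58 and 75 in the PRL group, in the same direction as KRT17 (1.25, SE 0.26, edgeR adjusted p = 0.0019). Summed TPM of the 20 basal markers in the table was 56.3 to 75.3 in controls and 80.03 to 86.2 in the PRL group. Among 6 tested squamous differentiation genes 2 were called higher, 1 fell and 3 did not pass. The 2 called higher, S100A7 and SPRR1A, reached the filter level in the PRL group alone, so they had to differ to be tested. S100A7, a protein of stressed skin, had 0 counts in each control and 56 to 67 in the PRL libraries, at least 17.5-fold higher against 3 counts per library. SPRR1A had a fitted log2 difference of 2.48, and CNFN fell (-1.09, edgeR adjusted p = 4.4e-04).

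Markers of stromal, endothelial and immune cells were summed at 17.9 to 25.1 TPM in controls and 48.9 to 49.7 TPM in the PRL group. Most of the sum was CD68 (means of 2.90 and 16.6 TPM) and COL1A1 (12.95 and 24.1 TPM). Of 7 tested genes edgeR called 4 higher, beside 32.4% of all tested genes. Neither edgeR nor DESeq2 called any lower, with 0 lower at an unadjusted p under 0.05. CD14 is among the 4, but it reached the filter level in the PRL group alone and so had to differ to be tested (log2 fold change 1.30). CD68 (2.09) and COL1A1 (0.51) reached it in all libraries and rose (edgeR adjusted p = 6.1e-07 and 0.00196). No gene of the list was at 0 in all libraries. PTPRC, the common leukocyte antigen, had a mean of 0.827 TPM in controls and 1.09 TPM in the PRL group. The part of these markers in the keratin values was not tested. When the ribosomal protein genes, whose share moved with the groups, were left out of the scaling, KRT8, KRT18, KRT19 and KRT7 had log2 fold changes of -0.60, -0.74, -0.47 and -0.81.

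The genes whose profile over the 6 libraries was most like that of each tested keratin were found by the smallest distance between centred log2 CPM profiles among genes of at least 5 CPM. They were SELENOW for KRT8 (distance 0.0436, where the median gene was at 0.856), C16orf74 for KRT18 (0.0616, median 0.993), BCAS4 for KRT19 (0.0561, median 0.767), FIS1 for KRT7 (0.0645, median 1.09), GSR for KRT80 (0.0389, median 0.577) and IL17RB for KRT15 (0.0753, median 1.02). The low genes had no gene as near: SCIN was nearest to KRT13 (1.11, median 3.49) and H2AC8 to KRT17 (0.305, median 1.34). None of the 8 nearest genes is a keratin.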

How the data were processed

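RNA sequencing data of 6 T47D libraries were used. The submitters' processing notes name HISAT2 2.1.0, Bowtie2 2.3.4.3 and GRCh38.p13; for the counter, annotation and strand setting the sources name nothing. The authors deposited estimated counts, FPKM and TPM per gene and library, per the file headers; 44.1% to 45.9% of count values were not whole, and counts were rounded here. The authors' 6 columns of group means were not used.

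The main test was the quasi-likelihood test of edgeR 4.0.16 under R 4.3.3 (robust, filter by expression, TMM, group as the only term), with Benjamini-Hochberg adjustment over 14076 genes and a threshold of 0.05. SE is the absolute log2 fold change over the root of F. Alternatives used DESeq2 1.42.0, limma 3.58.1 on log2 FPKM or TPM (pseudocount 1 or 0.1, mean at least 1), other scalings and filters, the replicate number as a block, and each library left out; scaling without ribosomal protein genes was added after seeing the data. On simulated counts with 13933 genes tested, edgeR called 71.2%, 88.1% and 100% of genes changed by 1.5, 2 and 4 times, and 0.0655% of unchanged ones. The simulation changed 200 genes and gave both groups the same spread. In the data 62.9% of genes were called and the controls spread more widely, so these rates do not carry over to them. Keratins and lists were chosen with earlier results of these data known. Named genes were the 10 keratins, PRL, the 3 smallest adjusted p of each other list, 6 lineage markers and the most similar profile of each tested keratin. KRT16, CDH3, TFF1, PTPRC and SYNM were named outside this rule. PCR copies are not independent molecules, so intervals and floors describe counting error alone. Sequences and positions are from GENCODE 29. One shared stretch of sequence is not reported here.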

Additional observations from a re-analysis of the deposited data

How the results depend on the processing

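KRT7, KRT8, KRT18 and KRT15 were lower and called in all 18 alternatives. KRT13 was lower and called in the 15 that could test it, but it passed the main filter through the controls alone. KRT19 lost its call on FPKM and TPM, KRT17 in DESeq2 and without any single library but control replicate 1, and KRT80 gained one with library totals, FPKM and TPM; no member changed direction. Depth limits KRT5, KRT14, KRT13 and KRT17, and 1 count is worth 0.0551 to 0.0678 CPM.

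With library totals, 2394 genes were called lower, against 4300, as were 1 gene of the desmosome and linker list, against 8, and 2 keratin members were called higher, against 1. With no filter, 2 other epithelial keratins were called higher and 3 hair keratins lower. DESeq2 called 0 keratin members and 0 other intermediate filament genes higher (1 each, KRT17 and SYNM, at an unadjusted p under 0.05), 2 hair keratins lower and 2 stromal and immune markers higher. On FPKM, 2360 genes were called lower, with 2 keratin members higher, 0 other epithelial keratins and 0 other intermediate filament genes higher, 2 linker genes lower, and 3 basal markers higher and 2 lower. On TPM with a pseudocount of 1, 7113 genes were called higher and 1381 lower, and with 0.1, 7034 and 1371; with either, 2 keratin members, 0 other epithelial keratins, 1 hair keratin and 7 linker genes were called higher, and 3 other intermediate filament genes, 1 linker gene and 1 basal marker lower. KRT16 was under the minimum mean of the FPKM and TPM fits, so limma could not call it (0 other epithelial keratins higher at an unadjusted p under 0.05). For the other values the cause was not tested. Per length on the TMM scale, the PRL to control ratio of summed levels was 0.664 for luminal, 0.667 for type I and 0.660 for type II keratins, against 0.916, 0.920 and 0.909 on TPM.

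With 1 library left out, 0 to 1 keratin members, 0 to 2 other intermediate filament genes and 2 to 5 stromal and immune markers were called higher. Over all genes, 7590 to 9952 were called. With the replicate number as a block, 8531 genes were called, against 8854, and 7 keratin members; it changed no keratin call. Same-numbered libraries correlated at -0.105, 0.0428 and -0.0569 in their deviations from group means, and not every library correlated best with its own number. With 3 libraries per group, these values cannot show whether same-numbered libraries were handled together.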
